A study of Mus musculus with 8 samples.

Results

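The T cell receptor segments and CD3 chains described here are the rows of the deposited gene table named as variable (V), diversity (D), joining (J) or constant segments of the 4 T cell receptor loci, together with the CD3 chains Cd3d, Cd3e and Cd3g and the coreceptors Cd4, Cd8a and Cd8b1. Of 45706 genes in the table, 274 had such a name, and 28 of these reached 10 or more estimated counts summed over all 8 libraries and were kept. The 28 genes were 7 constant segments, 15 V segments, 3 CD3 chains and 3 coreceptors. The genes were thus chosen by their names and their summed counts, so their abundance is given as a description. The lowest totals kept were 10.5 for Trav6d-7 and 11 for Trav15n-1 and Trav16n, and the highest totals left out were 8 for Trav6-7-dv9 and 7 for Trav13n-3.

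A T cell receptor is a pair of chains, either alpha with beta or gamma with delta. Each chain is assembled in the developing T cell when the Rag1 and Rag2 recombinase joins a V, in some loci a D, and a J segment, and the joined exon is then spliced to a constant segment. The CD3 gamma, delta and epsilon chains pair with each other, hold the receptor at the cell surface and carry its signal inward, and CD4 or CD8 binds the MHC molecule beside it. Natural killer (NK) cells are lymphocytes that kill without such a receptor. They are known to transcribe unrearranged constant segments and some CD3 genes, while lacking a CD3 complex at the surface.

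RNA was sequenced from NK cells of BALB/c mice that all carried a subcutaneous tumour of CT26_β2m-/- cells, a mouse colorectal carcinoma line without β2-microglobulin and so without surface MHC class I. The 8 libraries form 2 groups by title, 4 spNK (splenic NK cells) and 4 tuNK (NK cells from the tumour), and no further treatment, genotype or time point is labelled. The tissue tag and source name give the opposite tissue in all 8 samples, so every direction below follows the titles. The labels give no age or sex, do not name the sort markers, and do not say whether a library came from 1 mouse or a pool. The p-values therefore measure the spread between these libraries, which may be technical.

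Library totals ran from 38745733 to 53886933 estimated counts. The 28 genes took 0.0337 to 0.0407% of them in spNK and 0.0128 to 0.0184% in tuNK. All 16 NK markers examined were detected in both groups, and they summed to 13069 to 18824 CPM (counts per library size, scaled between libraries by the TMM method) in spNK and 4015 to 5675 CPM in tuNK. Genes expressed across leukocytes stood at 26.2 to 33.4% of their spNK mean in the tuNK libraries. The markers of fibroblasts and mesenchymal tumour cells reached 14.5 to 48.8 CPM in spNK against 3044 to 4676 CPM in tuNK. Erythroid markers summed to 158 to 729 CPM in spNK against 0.362 to 1.94 CPM in tuNK. Library spNK 3 held the highest B cell and macrophage sums (45.9 and 351 CPM) and tuNK 1 the highest mesenchymal sum. The part of these other cells in the results below was not tested, and fewer cells of a type cannot be told apart from less RNA per cell.

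Several constant segments are near copies, which limits how far reads of 60 nt can be assigned to one of them. The mouse beta locus has a pair of constant segments, Trbc1 (chr6:41538218-41539881, plus strand) and Trbc2 (chr6:41546730-41548352, plus strand), in GRCm38. Their annotated transcripts differed at 19 of the first 500 bases, an identity of 96.2%, and 38.2% of the 60 nt windows of Trbc1 and 41.5% of those of Trbc2 also occurred in the other. The first 390 bases held 4 mismatches and the stretch from base 391 to base 510 held 17, so that stretch is printed here from the GENCODE M21 transcripts, 5′ to 3′, with capitals at the bases that differ between them:
Trbc1: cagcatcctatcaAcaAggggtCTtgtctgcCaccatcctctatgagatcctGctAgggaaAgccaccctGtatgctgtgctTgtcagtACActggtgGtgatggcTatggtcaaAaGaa
Trbc2: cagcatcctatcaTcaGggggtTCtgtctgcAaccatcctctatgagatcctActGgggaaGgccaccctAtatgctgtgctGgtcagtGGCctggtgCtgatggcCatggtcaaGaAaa

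The gamma constants lie on chromosome 13, at chr13:19214103-19217024 (Tcrg-C1, plus strand), chr13:19304649-19307551 (Tcrg-C2, minus strand) and chr13:19344558-19352756 (Tcrg-C4, plus strand) in GRCm38. In their first 120 bases Tcrg-C2 differed from Tcrg-C1 at 2 positions and Tcrg-C4 differed from it at 14, shown as capitals:
Tcrg-C1: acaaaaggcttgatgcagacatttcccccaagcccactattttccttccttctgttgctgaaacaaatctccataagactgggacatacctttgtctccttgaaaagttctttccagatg
Tcrg-C2: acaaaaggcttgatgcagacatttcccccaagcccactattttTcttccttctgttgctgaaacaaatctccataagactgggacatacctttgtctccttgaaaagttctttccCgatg
Tcrg-C4: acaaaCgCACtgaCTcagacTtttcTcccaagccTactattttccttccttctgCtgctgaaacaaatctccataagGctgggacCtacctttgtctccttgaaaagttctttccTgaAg

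None of the 60 nt windows of Tcrg-C4 was shared with another gene, whereas 26.5% of those of Tcrg-C1 and 18.1% of those of Tcrg-C2 were. Values of Trbc1 and Trbc2, and of Tcrg-C1 and Tcrg-C2, are therefore uncertain one by one. The delta segments Trdv2-2 (chr14:53960944-53961602, plus strand) and Trdv4 (chr14:54074905-54075515, plus strand) were the most abundant V segments, and their last 120 annotated bases are printed with the codons from the conserved tyrosine to the conserved cysteine in capitals, after which the joined D and J bases follow in a rearranged gene:
Trdv2-2: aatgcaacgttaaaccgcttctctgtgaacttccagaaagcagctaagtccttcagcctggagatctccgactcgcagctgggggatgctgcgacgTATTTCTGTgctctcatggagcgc
Trdv4: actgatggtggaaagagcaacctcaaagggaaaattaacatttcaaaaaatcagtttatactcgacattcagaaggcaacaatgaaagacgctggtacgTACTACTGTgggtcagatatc

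All 60 nt windows of Trdv4 were found in no other gene, whereas 48.2% of those of Trdv2-2 were shared with Trdv2-1.

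The constant segments carried most of the receptor signal. Constant segments summed to 290 ± 34.4 CPM in spNK against 146 ± 30.9 CPM in tuNK (SD, n = 4), and V segments to 15.3 ± 4.57 and 5.37 ± 1.87 CPM. On the length-scaled TPM scale, which allows levels of different genes to be compared, Trbc1 (185 ± 45.0 TPM) and Trbc2 (168 ± 19.3 TPM) led in spNK and did not differ beyond their spread. Trdv2-2 followed at 66.9 ± 24.6 TPM, then Trdc at 33.8 ± 5.16 TPM and Cd3g at 30.3 ± 7.59 TPM, a pair within each other's spread. Cd3d at 14.8 ± 2.18, Trac at 13.3 ± 3.84 and Tcrg-C4 at 11.3 ± 2.01 TPM were also close to each other. The order differed from that of CPM because the annotated Trdc transcript is 3865 nt long, against 737 nt for Trbc1 and 397 nt for Trdv2-2. By counts Trdv2-2 stood below Trdc, at 6.94 to 14.0 per 100 Trdc counts in spNK, so its TPM rank rests on the short length.

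Of the 14 genes that passed the filter on low counts and were tested, 11 fell in tuNK, 0 rose and 3 were not called by the edgeR quasi-likelihood test at an adjusted p of 0.05. At an unadjusted p of 0.05 edgeR also gave 0 higher. By adjusted p, DESeq2 gave 1 higher (Trdv4) and limma on TPM gave 0. Over all 14006 genes tested, 69.6% were called, with 34% of the genes falling and 35.6% rising. In 9 of the 14, every tuNK library lay below every spNK library, as for 32.7% of all genes tested. The median log2 fold change (tuNK minus spNK) of the 14 genes was -1.38, against 0.02 for all genes tested. Of the 11 that fell, 5 (Trdc, Trbc1, Trbc2, Cd3g and Tcrg-C4) were instead higher in tuNK when libraries were scaled to leukocyte genes. These 14 passed the filter partly through the group in which they were high, so the count describes them and is no test of the list.

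Trdc, the delta constant segment (chr14:54142851-54148868, plus strand), had the most counts of any of the 28 genes, at 122, 129, 93.8 and 103 CPM in spNK 1 to 4 and 40.3, 65.6, 56.1 and 66.0 CPM in tuNK 1 to 4. Every tuNK library was below every spNK library, and the log2 fold change was -0.97 ± 0.16 (SE) with an adjusted p of 3.28e-04. The delta and alpha loci are interleaved on chromosome 14, with the delta segments inside the alpha locus. Trac, the alpha constant (chr14:54220521-54224206, plus strand), stood at 7.91, 11.3, 5.31 and 8.45 CPM in spNK against 1.58, 2.28, 2.52 and 2.17 CPM in tuNK. It fell further than Trdc, with a log2 fold change of -1.95 ± 0.28 and an adjusted p of 1.06e-04, and the groups did not overlap.

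Trbc1 measured 107, 102, 67.7 and 68.2 CPM in spNK against 40.3, 50.4, 42.7 and 54.6 CPM in tuNK. Trbc2 measured 74.0, 66.6, 70.3 and 84.2 CPM in spNK against 23.1, 44.9, 27.1 and 44.0 CPM in tuNK. Neither gene's groups overlapped, and the log2 fold changes were -0.87 ± 0.17 for Trbc1 (adjusted p = 0.00103) and -1.08 ± 0.21 for Trbc2 (adjusted p = 9.73e-04). Because reads may move between these near copies, they were also summed before the fit, which gave a log2 fold change of -0.97 ± 0.15 (adjusted p = 2.04e-04).

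Of the gamma constants, Tcrg-C4 was the most abundant, at 8.70, 5.96, 9.07 and 7.98 CPM in spNK against 3.60, 4.89, 3.86 and 7.10 CPM in tuNK. The groups overlapped, since tuNK 4 was above spNK 2, and the log2 fold change was -0.70 ± 0.26 (adjusted p = 0.0310). That call was lost when spNK 1, spNK 3, spNK 4, tuNK 1, tuNK 2 or tuNK 3 was left out (adjusted p of 0.0537 to 0.0747). Tcrg-C2 fell from 0.712 ± 0.163 to 0.0891 ± 0.0371 CPM with no overlap (log2 fold change -3.00 ± 0.62, adjusted p = 0.00129), but its tuNK libraries held 2 to 6 counts each. Tcrg-C1, at 1.18 ± 0.751 CPM in spNK against 0.471 ± 0.189 CPM in tuNK, was not called (adjusted p = 0.0936), and it passed the threshold with spNK 1 left out (adjusted p = 0.0350). Tcrg-C3 had 0 counts in every library. The gamma constants summed to 1 feature gave a log2 fold change of -0.86 ± 0.25 (adjusted p = 0.0101).

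**Figure D1:**
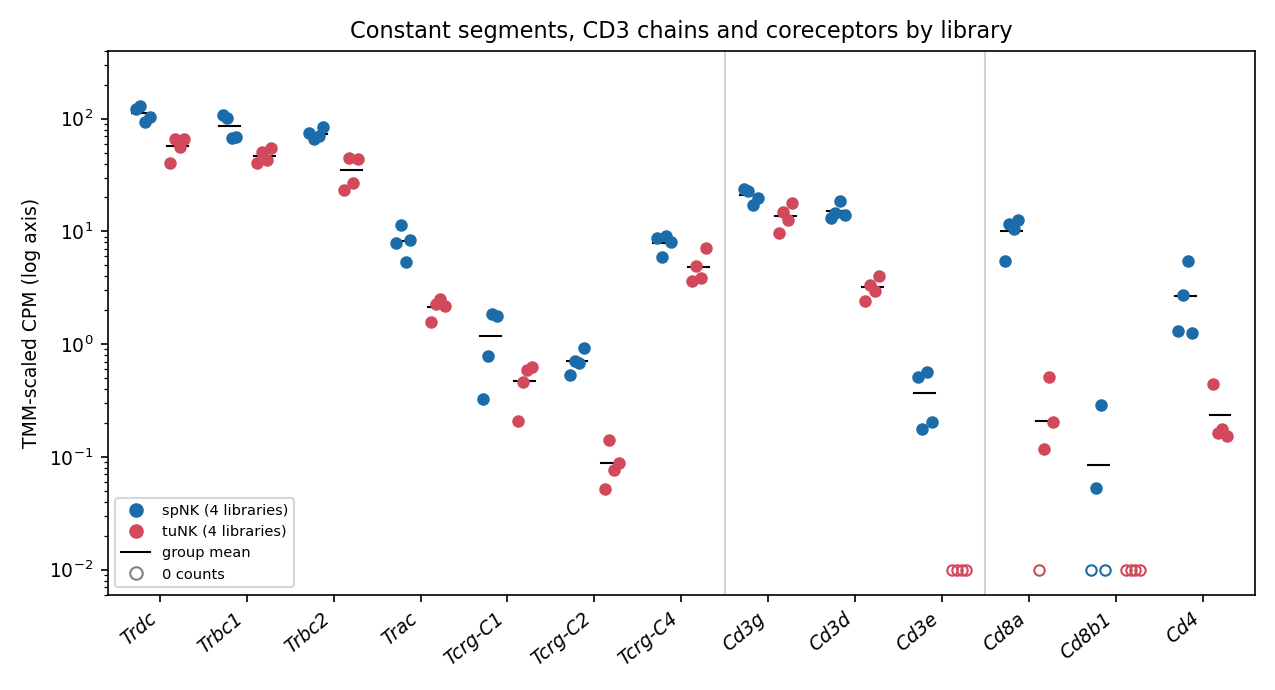
TMM-scaled CPM on a log axis of the 7 constant segments, 3 CD3 chains and 3 coreceptors in each of the 4 spNK and 4 tuNK libraries, with a bar at each group mean and open circles at the bottom edge for libraries with 0 counts. Trdc, Trbc1, Trbc2, Tcrg-C4 and Cd3g lie closer together between the groups than Cd3d does, and Cd3e, Cd8a and Cd8b1 are at or near 0 in tuNK.

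The 3 CD3 genes lie next to each other on chromosome 9, and their levels and changes differed. Cd3g (chr9:44969572-44980431, minus strand), which encodes CD3 gamma, stood at 23.7, 22.9, 17.2 and 19.7 CPM in spNK against 9.63, 14.8, 12.6 and 17.9 CPM in tuNK. Its groups overlapped, since tuNK 4 was above spNK 3, and the log2 fold change was -0.60 ± 0.19 (adjusted p = 0.0169). Cd3d (chr9:44981786-44987339, plus strand), which encodes CD3 delta, stood at 13.0, 14.5, 18.6 and 14.0 CPM in spNK against 2.43, 3.38, 2.97 and 3.98 CPM in tuNK. Every tuNK library was below every spNK library, with a log2 fold change of -2.23 ± 0.21 (adjusted p = 3.81e-06), a mean 4.71-fold lower.

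Cd3e (chr9:44998740-45009627, minus strand) encodes CD3 epsilon, the chain that antibodies to CD3 usually recognise. It held 22, 10, 28 and 9 counts in spNK and 0 counts in all 4 tuNK libraries. Its spNK mean was 0.366 CPM, and setting each tuNK library to a floor of 3 counts gives a level at least 4.88-fold lower in tuNK, for counting error only. Cd3e did not pass the filter on low counts. Within a spNK library there were 0.775 to 3.33 Cd3e counts per 100 Cd3g counts. In T cells with an alpha-beta receptor, all 3 chains are part of the CD3 complex at the surface.

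The Cd3d and Cd3g starts are 1355 bases apart and face away from each other, so their upstream sequences are shown to let the promoters of a divergent pair with unequal change be compared. The 150 bases before each RefSeq start (GRCm38.p6; chr9:44981636-44981785, plus strand, for Cd3d and chr9:44980432-44980581, minus strand, for Cd3g) are given with that of Cd3e (chr9:45009612-45009761, minus strand), read on the gene's own strand, with motif matches on either strand in capitals:
Cd3d upstream: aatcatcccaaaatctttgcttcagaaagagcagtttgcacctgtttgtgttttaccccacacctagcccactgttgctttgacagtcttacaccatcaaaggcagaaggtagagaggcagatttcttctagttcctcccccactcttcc
Cd3g upstream: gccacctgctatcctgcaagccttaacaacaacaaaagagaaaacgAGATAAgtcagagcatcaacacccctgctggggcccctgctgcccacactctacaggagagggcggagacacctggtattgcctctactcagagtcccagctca
Cd3e upstream: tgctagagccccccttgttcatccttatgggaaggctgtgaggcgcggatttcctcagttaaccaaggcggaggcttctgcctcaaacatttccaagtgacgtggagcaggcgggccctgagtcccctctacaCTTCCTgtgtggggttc

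Searching 250 bases before the start on both strands, AGGAAG (bound by Ets factors) occurred 198 bases upstream of Cd3d, beyond the printed stretch, and 224 and 17 bases upstream of Cd3e. AGATAA (bound by GATA factors) occurred 104 bases upstream of Cd3g. TGTGGT (bound by Runx factors) and TATAAA (the TATA box) occurred in none of the 3. Of all 32817 RefSeq windows of this length, 29.5% held AGGAAG, 9.99% AGATAA, 14% TGTGGT and 12.4% TATAAA. A match describes letters and not binding, and the motifs do not overlap one another in these windows.

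Coreceptor transcripts were mostly in spNK, at 12.8 ± 4.16 CPM summed against 0.441 ± 0.176 CPM in tuNK. Cd8a (chr6:71373427-71379173, plus strand), the CD8 alpha chain, which some dendritic cells also carry, held 236, 654, 519 and 553 counts in spNK and 0, 5, 20 and 8 in tuNK. Its level fell from 10.1 ± 3.14 to 0.207 ± 0.217 CPM, a log2 fold change of -5.59 ± 0.70 (adjusted p = 5.42e-05), with no overlap. Without tuNK 3, which held most of the tuNK counts, the log2 fold change was -6.52. Cd8b1 (chr6:71322788-71337494, plus strand), the CD8 beta chain, which T cells need for the alpha-beta form of CD8, held 0, 3, 14 and 0 counts in spNK and 0 in every tuNK library. Cd8a was thus present in all 4 spNK libraries while Cd8b1 was at 0 in spNK 1 and spNK 4.

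Cd4 (chr6:124864692-124888221, minus strand), the MHC class II coreceptor, which some myeloid cells also transcribe, stood at 1.30, 2.72, 5.45 and 1.25 CPM in spNK against 0.440, 0.163, 0.178 and 0.153 CPM in tuNK. Every tuNK library was below every spNK library, and the log2 fold change was -3.51 ± 0.65 (adjusted p = 6.42e-04). The highest value was in spNK 3, the library with the highest macrophage and B cell sums, and without it the log2 fold change was -2.91 (adjusted p = 0.00196).

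Of 176 V segment genes in the table, 149 had 0 counts in every library, 12 had 1 to fewer than 10 counts, and 15 reached 10. All 80 J segments and all 4 D segments had 0 counts. Annotated J segments are 29 to 72 nt long and 38 of the 80 are shorter than the read, D segments are 11 to 16 nt, and V segments have a median of 360.5 nt, so a count of 0 for a J or D segment is no measure of its use. Of the 3871 counts in the 15 V segments, 3356 fell in the delta segments Trdv2-2 and Trdv4. The mice were BALB/c and the reads were assigned with GRCm38. Whether strain differences in receptor segments affect these counts, or counts of 0, was not tested.

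Trdv2-2 held 531, 1020, 520 and 315 counts in spNK and 76, 133, 52 and 54 in tuNK. It fell from 12.1 ± 4.58 to 1.94 ± 0.825 CPM, a log2 fold change of -2.63 ± 0.36 (adjusted p = 7.23e-05), and the groups did not overlap. Trdv4, the V segment closer to the delta constant of the pair, held 54, 113, 56 and 35 counts in spNK and 143, 114, 72 and 68 in tuNK. Its mean was 1.30 ± 0.510 CPM in spNK against 2.48 ± 0.913 CPM in tuNK, and spNK 2 lay above tuNK 3 and tuNK 4. The log2 fold change of 0.93 ± 0.42 was not called (adjusted p = 0.0703), although it passed with DESeq2 (0.94, adjusted p = 0.0495) and with spNK 2 left out (1.22, adjusted p = 0.0339).

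Beta, alpha and gamma V segments were sparse. Trbv13-2, the most abundant beta V segment, held 29, 9, 38 and 69 counts in spNK and 8, 21, 4 and 14 in tuNK, with overlapping groups and no call (log2 fold change -1.44 ± 0.77, adjusted p = 0.115). Trbv12-2 held 15, 9, 5 and 0 counts in spNK and 0, 3, 0 and 3 in tuNK, and Trbv1 held 19 counts in spNK 4, 7 in tuNK 1 and 0 elsewhere.

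Among alpha V segments, Trav3-4 was found only in tuNK in these libraries, with 16, 24, 0 and 18 counts there and 0 in every spNK library. Setting each spNK library to 3 counts makes it at least 5.68-fold higher in tuNK. Trav1 showed the opposite, with 0, 23, 14 and 16 counts in spNK and 0 in every tuNK library, and was at least 3.52-fold lower in tuNK by the same floor. Neither passed the filter on low counts, and each has 1 library of its higher group at 0. Of the 60 nt windows of Trav3-4, 15.5% also occurred in Trav3-1.

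Trav13-2 held 18 counts in spNK 3 and 6 in spNK 4, Trav16n held 11 in spNK 1, and Trav15n-1 held 7 in spNK 2 and 4 in tuNK 2. Trav6n-7 (9 in spNK 1 and 4.5 in spNK 3) and Trav6d-7 (6 in spNK 2 and 4.5 in spNK 3) share all of their 60 nt windows with each other, so their counts cannot be told apart. All windows of Trav15n-1 and 45% of those of Trav16n were also shared with another V segment, so these are uncertain too. For the gamma locus, Tcrg-V5 held 4, 14, 3 and 0 counts in spNK and 8, 2, 0 and 5 in tuNK, Tcrg-V1 14, 0, 4 and 0 against 7, 0, 0 and 8, and Trgv2 7 in spNK 1 and 5 in spNK 3.

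**Figure D2:**
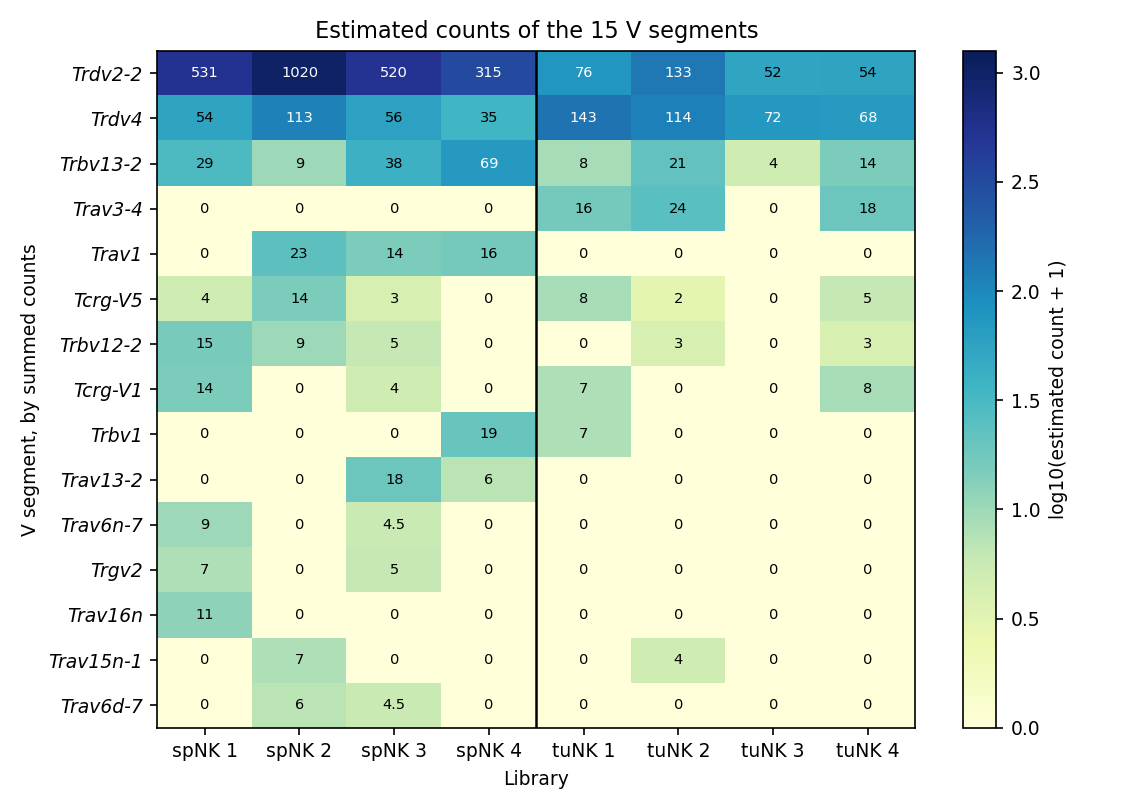
Estimated counts of the 15 V segments in each library, printed in the cells and coloured by log10 of the count plus 1. Trdv2-2 and Trdv4 hold most counts in every library, with Trdv2-2 above Trdv4 in all 4 spNK libraries, while most alpha, beta and gamma V segments are at 0 in several libraries of their group.

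Ratios of counts within a library do not depend on how libraries are scaled. There were 0.102 to 0.111 Trdv4 counts per Trdv2-2 count in the 4 spNK libraries and 0.857 to 1.88 in the 4 tuNK libraries. Trdv2-2 fell relative to its constant segment, from 6.94 to 14.0 counts per 100 Trdc counts in spNK to 2.09 to 4.88 in tuNK, whereas Trdv4 stood at 0.771 to 1.55 per 100 Trdc in spNK and 2.63 to 9.18 in tuNK. The delta V segments together did not separate the groups, at 7.71 to 15.6 per 100 Trdc in spNK and 4.72 to 14.1 in tuNK.

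Cd3d per Cd3g count was 0.551 to 1.08 in spNK and 0.222 to 0.253 in tuNK, so the pair of neighbouring genes changed unequally. Trbc2 per Trbc1 overlapped between the groups (0.654 to 1.23 and 0.572 to 0.891). There were 5.66 to 8.75 Trac counts per 100 Trdc counts in spNK and 3.29 to 4.49 in tuNK. Beta V segments made up 0.232 to 1.31 counts per 100 beta constant counts in spNK and 0.146 to 0.636 in tuNK, a lower ratio than that of delta V segments to Trdc. Alpha V segments, at 5.65 to 21.2 per 100 Trac in spNK and 0 to 36.1 in tuNK, and gamma V segments, at 0 to 6.08 and 0 to 10.1 per 100 gamma constant counts, overlapped widely.

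Relative to Ncr1, the NK receptor NKp46, Trdc and the summed beta constants were higher in tuNK, and the other constant segments were not compared with it. Trdc per Ncr1 count was 0.0727 to 0.0798 in spNK and 0.156 to 0.211 in tuNK, and the beta constants per Ncr1 count were 0.103 to 0.117 and 0.227 to 0.315. Cd3g per Ncr1 was 0.0139 to 0.0146 in spNK and 0.0373 to 0.0572 in tuNK, whereas Cd3d per Ncr1 overlapped (0.00791 to 0.0158 and 0.00911 to 0.0127). Ncr1 itself fell from 1469 ± 223 to 312 ± 45.9 CPM. Its log2 fold change was -2.23, against a median of -1.96 for the 16 NK markers, and -0.48 with leukocyte scaling (adjusted p = 0.00831 by edgeR). The size of these ratios therefore depends on Ncr1 as the denominator, and ratios to other NK markers were not computed. Of 16 ratios tested, 10 did not overlap. Each of these had an exact two-sided permutation p of 0.0286, the smallest that 4 against 4 libraries allow. After Benjamini-Hochberg adjustment over the 16 it was 0.0457. Separation was common in these data. Every tuNK library lay below every spNK library for 32.7% of single genes tested, and above for 34.4%. The count of 10 therefore describes the ratios and is no test of them as a set. One of the 10, Cd3e per Cd3g, separates by construction, since Cd3e was kept through its spNK counts and was at 0 in every tuNK library. Cd8a per 100 Cd3g counts, also among the 10, was 23.2 to 63.7 in spNK and 0 to 4.02 in tuNK. Cd8a passed the filter on low counts through its spNK libraries, so its separation is a description as well. Both ratios were kept among the 16 for the adjustment, and the adjusted p of 0.0457 from the permutation test depends on their inclusion.

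**Figure D3:**
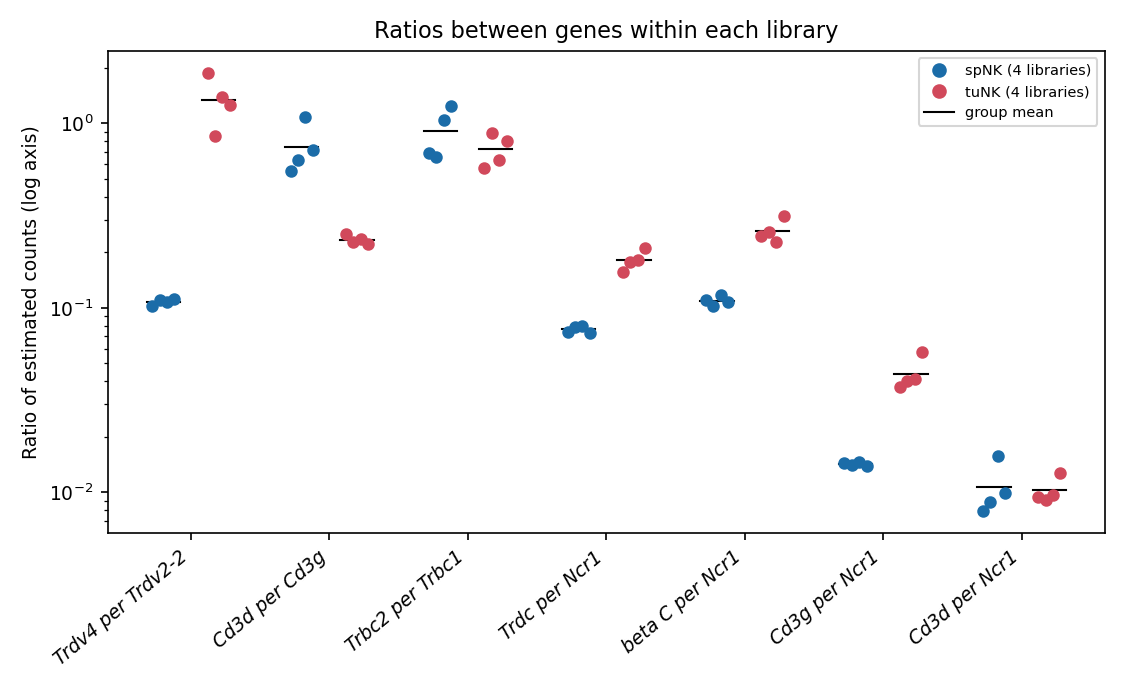
Ratio of estimated counts between genes within each library, on a log axis, with a bar at each group mean of 4 libraries. Trdv4 per Trdv2-2 and the ratios of Trdc, beta constants and Cd3g to Ncr1 are higher in all 4 tuNK libraries, Cd3d per Cd3g is lower in all 4, and Trbc2 per Trbc1 and Cd3d per Ncr1 overlap.

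The direction of most constant segments depended on the reference used for scaling. When libraries were scaled to 35 genes expressed across leukocytes instead of to all genes, the median over all genes tested moved by 1.74 on the log2 scale, to 1.76, and 5.73% of genes were called lower and 78.4% higher in tuNK. Of the 14 genes, 3 were then lower (Cd8a, Cd4 and Trdv2-2) and 6 higher (Trdc, Trbc1, Trbc2, Cd3g, Tcrg-C4 and Trdv4), with a median of 0.25. The log2 fold change became 0.76 for Trdc, 0.89 for Trbc1, 0.62 for Trbc2 and 1.14 for Cd3g, so their fall under the TMM scaling was smaller than that of leukocyte genes as a group. Cd8a at -3.90, Cd4 at -1.83 and Trdv2-2 at -0.89 (adjusted p = 0.0337) kept their direction and their call. Cd3d at -0.54 (adjusted p = 0.0911), Trac at -0.19 (adjusted p = 0.586) and Tcrg-C2 at -1.34 (adjusted p = 0.113) were no longer called. Trdv4 reached 2.70 (adjusted p = 1.03e-04).

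**Figure D4:**
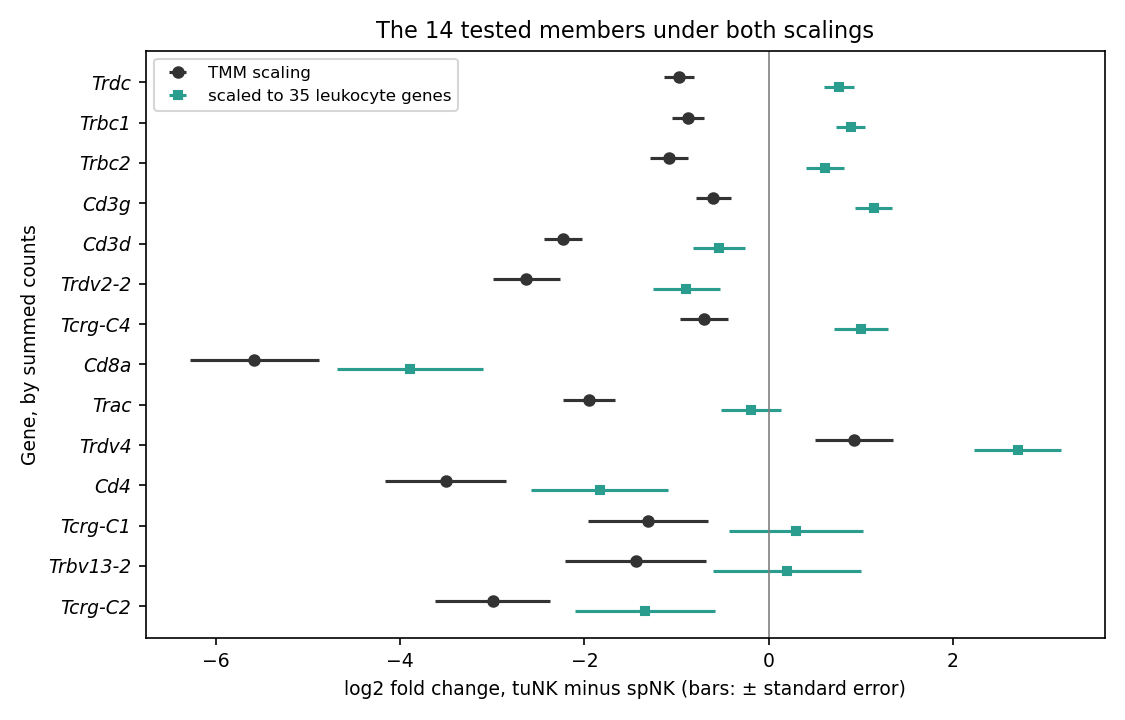
Log2 fold change (tuNK minus spNK) of the 14 tested genes with its standard error, with TMM scaling (circles) and with scaling to 35 leukocyte genes (squares). Cd8a, Cd4 and Trdv2-2 stay below 0 under both scalings, Trdv4 stays above 0, and Trdc, Trbc1, Trbc2, Cd3g and Tcrg-C4 lie below 0 under the first and above 0 under the second.

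Markers of conventional T cells were examined beside these genes because such cells carry rearranged receptors. The 12 markers summed to 277 to 346 CPM in spNK against 79.7 to 131 CPM in tuNK. Of the 8 tested, 7 were lower (87.5%, against 34% of all genes tested) and 1, Icos, was higher in tuNK. The call of Icos was lost with no filter on low counts (adjusted p = 0.0556 by edgeR). The sum was made up mostly of Tcf7 (148 CPM in spNK, 39.7 CPM in tuNK), a transcription factor, and Cd28 (90.3 and 37.2 CPM), a costimulatory receptor, and NK cells are known to express Tcf7. Ubash3a (24.1 and 9.83 CPM), Lef1 (17.9 and 5.59 CPM) and Tespa1 (15.9 and 4.42 CPM) were also well above 0 and fell, and Icos, whose groups overlapped, averaged 4.25 and 8.77 CPM. Other markers of the list were at or near 0. Cd5, a scavenger receptor family member of T cells, averaged 0.0349 CPM in spNK against 0.0233 CPM in tuNK, Cd6 averaged 0.0850 and 0.128 CPM, and Cd40lg had 0 counts in all 8 libraries. Themis, needed for thymocyte selection, averaged 0.161 CPM in spNK against was at 0 in tuNK, and Trat1, an adaptor of the receptor complex, averaged 0.912 and 0.142 CPM.

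Bcl11b, a transcription factor of the T lineage, stood at 2.23, 2.33, 2.25 and 2.27 CPM in spNK against 0.828, 0.326, 0.483 and 0.383 CPM in tuNK (log2 fold change -2.16 ± 0.44, adjusted p = 0.00107). Markers of gamma delta T or NKT cells summed to 29.0 to 35.5 CPM in spNK against 13.5 to 21.0 CPM in tuNK, with 5 of 6 tested lower and Sox13 higher. Regulatory T cell markers summed to 65.1 to 77.9 CPM in spNK and 60.9 to 91.8 CPM in tuNK. Most of that sum was Tnfrsf18 (65.6 CPM in spNK and 53.2 CPM in tuNK). Foxp3, which defines those cells, was at 0 in spNK and averaged 0.0945 CPM in tuNK. Markers of other innate lymphoid cells summed to 422 to 571 CPM in spNK against 837 to 1002 CPM in tuNK, with 4 of 8 tested higher and 4 lower. The tuNK sum was mostly Tmem176b (372 CPM), Tmem176a (246 CPM) and Il1rl1 (204 CPM), which rose, as did Areg. Klrg1 (317 CPM in spNK and 61.5 CPM in tuNK), Kit, Gata3 and Rora fell. Over all genes tested, 34% fell and 35.6% rose. The part of any of these cell types in the levels of the receptor genes was not tested.

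**Figure D5:**
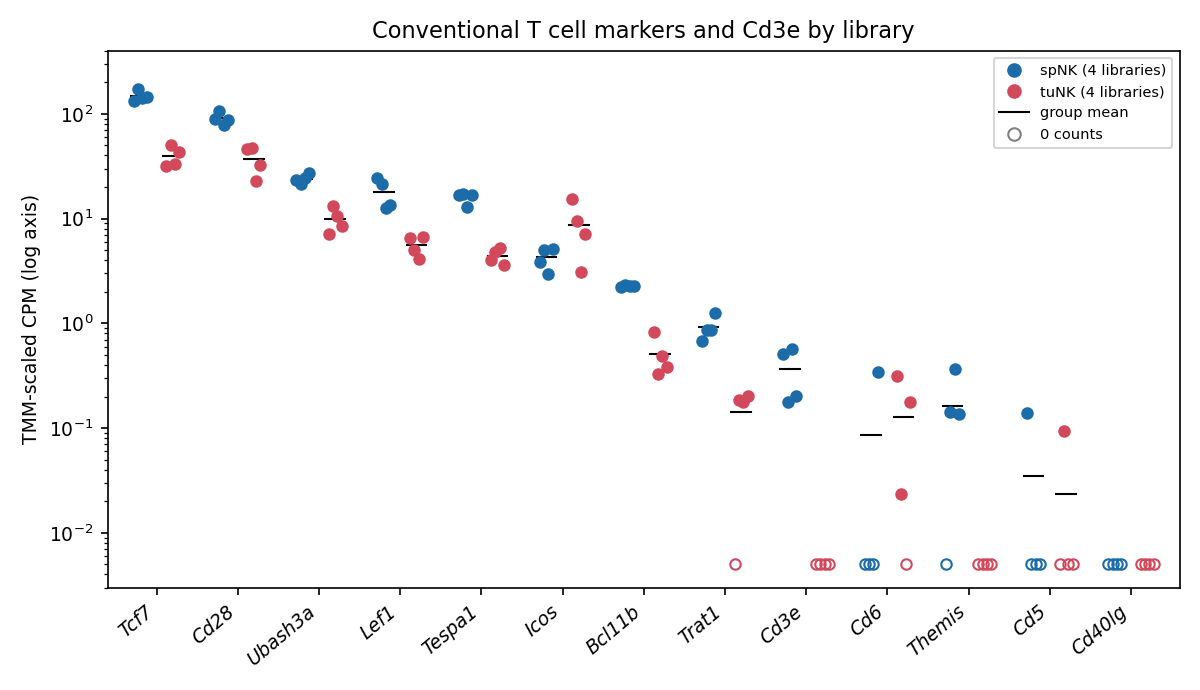
TMM-scaled CPM on a log axis of the 12 conventional T cell markers and Cd3e in each library, with a bar at each group mean and open circles at the bottom edge for 0 counts. Tcf7 and Cd28 are the highest in both groups, Icos has a higher mean in tuNK, and Cd3e, Cd5, Cd6, Themis and Cd40lg are below 1 CPM or at 0 in all libraries.

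Most other genes of the pathway also fell under the TMM scaling. Of 40 genes of T cell receptor signalling, 39 were tested, 35 fell (89.7%, against 34% of all genes tested) and 2 rose. The median log2 fold change was -1.68 (0.06 with leukocyte scaling, which called 9 lower and 12 higher). Cd247, the zeta chain that NK receptors such as NKp46 also use, fell from 159 ± 20.3 to 28.7 ± 2.87 CPM (log2 fold change -2.47 ± 0.12, adjusted p = 3.30e-08). The kinase Fyn (-2.55), the adaptor Grap2 (-3.10) and the phosphatase Ubash3b (-2.97) also fell, and the exceptions that rose were Plcg1 (2.25), a phospholipase, and Dok1 (0.41), an adaptor.

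Of 18 T lineage surface genes, 15 were tested, 10 fell (66.7%, against 34% of all genes tested) and 4 rose. The median was -1.48 (0.24 with leukocyte scaling, which called 4 lower and 5 higher). Il7r, the interleukin 7 receptor (-3.71), Lat, the adaptor of the receptor (-2.31), and Cd7 (-2.25) fell. The exceptions that rose were Ctla4 (7.93), Il2ra (1.82), Icos (1.04, a call lost with no filter) and Thy1 (0.90), a surface glycoprotein that fibroblasts also carry. Of 23 T lineage transcription factors, 22 were tested, 18 fell (81.8%) and 1 rose. The median was -1.95 (-0.21 with leukocyte scaling, which called 6 lower and 7 higher). Ikzf3 (-2.68), Ikzf1 (-2.59), Ets1 (-2.43) and Runx3 (-2.14) fell, and Sox13 rose (4.59).

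Of 13 genes of receptor recombination, 10 were tested, 3 fell (30%, near the 34% of all genes tested) and 2 rose, with a median of -0.01 (1.71 with leukocyte scaling). Rag1, a subunit of the recombinase, held 5 counts in spNK 3 and 0 in every other library. Rag2 held 4 counts in spNK 1 and 0 in every other library, and neither gene was tested. Dntt, the polymerase that adds bases at the joints, held 0.256, 1.08, 1.02 and 1.18 CPM in spNK against 0 in every tuNK library. It is among the 3 that fell, but it passed the filter on low counts through its spNK libraries alone. Dntt could thus not have been called higher, and its call is a description. Of the end-joining genes, Prkdc (-0.73) and Lig4 (-0.94) fell and Xrcc6 (0.65) rose, as did Hmgb1 (0.21), a cofactor of the recombinase, whose call was lost with no filter on low counts (adjusted p = 0.0830 by edgeR), while with leukocyte scaling Prkdc and Lig4 were higher (1.00 and 0.80).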

How the data were processed

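Tissues were digested with enzymes, NK cells were sorted by magnetic and flow methods, and stranded libraries of polyadenylated RNA were made from 20 ng of RNA and sequenced as pairs of 60 nt reads, per the labels' protocols. Per the submitters' processing notes, FastQC 0.11.9, STAR and Salmon were used with GRCm38 (mm10). For STAR and Salmon no version is named, and the annotation and strand setting were not given in the sources used here. Deposited by the authors were a gene table of estimated counts (expected counts, not normalized) and one of TPM (length-scaled, each library summing to the same total). Samples were grouped by title.

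Estimated counts were rounded to whole numbers. Genes were filtered with filterByExpr, scaled by TMM and tested with the edgeR 4.0.16 quasi-likelihood F test (robust), with Benjamini-Hochberg adjustment over all 14006 genes and a threshold of 0.05. CPM are TMM-scaled and given as mean ± SD. The standard errors (SE) given with edgeR log2 fold changes were derived from the test, as the absolute log2 fold change divided by the square root of F. Floors of 3 counts cover counting error only. Ratios were tested with scipy's exact permutation test. DESeq2 1.42.0, limma 3.58.1 on log2(TPM + 1) and log2(TPM + 0.1), other scalings and filters, summed near copies and left-out libraries were the alternatives. Positions are those of GENCODE M21, which held all 28 genes, and promoters those of RefSeq. 0 columns were left without a sample. Named by rule were all constant, CD3 and coreceptor genes, up to 8 V segments per locus, the 4 genes of smallest adjusted p per pathway list (1 of them is not reported here), and the markers described with their list; exceptions within a list were named after their values were seen. The genes and lists were chosen with earlier results of these data known.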

Additional observations from a re-analysis of the deposited data

Results flagged for a closer look

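In 12 of 120 groups of 4 libraries, 1 library stood apart from the other 3 by Dixon's criterion for a gap within a group. Chance gives about 1 in 20 for continuous values, but 5 of the 12 are V segments at 0 in the other 3 libraries, which meet the criterion by construction, so the count is not read against chance. Cd4 in tuNK 1 was 0.440 CPM against 0.153 to 0.178 CPM in the other tuNK libraries. Alpha V segments summed to 1.12 CPM in spNK 3 against 0.582 to 0.639 CPM in the other spNK libraries, and stood at 21.2 per 100 Trac counts there against 5.65 to 7.35. Cd3d per Ncr1 count was 0.0127 in tuNK 4 against 0.00911 to 0.00968 in the other tuNK libraries.

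V segments found in a single library of a group were Trbv1 in spNK 4 (0.431 CPM) and in tuNK 1 (0.181 CPM), Trav16n in spNK 1 (0.256 CPM), and Trav15n-1 in spNK 2 (0.124 CPM) and in tuNK 2 (0.0932 CPM), with 0 CPM in the other libraries of the same group. Among other cell types, spNK 3 held B cell markers at 45.9 CPM against 19.8 to 23.3 CPM and macrophage and monocyte markers at 351 CPM against 98.6 to 141 CPM, and tuNK 1 held fibroblast and mesenchymal tumour cell markers at 4676 CPM against 3044 to 3310 CPM. With spNK 3 and tuNK 1 left out together, an alternative chosen after seeing the data, 10 of the 11 receptor genes that fell still did, and Tcrg-C4 did not (adjusted p = 0.131 by edgeR).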

How the results depend on the processing

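Scaling to 35 leukocyte genes moved most results. It left 802 genes lower and 10981 higher, and 3 receptor and CD3 genes lower and 6 higher. It reversed the log2 differences of summed constant segments (0.75), V segments (0.24) and CD3 chains (0.62), and the log2 fold changes of Cd3g (1.14), Tcrg-C4 (1.00), Trbc1 (0.89), Trdc (0.76), Trbc2 (0.62), Tcrg-C1 (0.29), Trbv13-2 (0.20), Prkdc (1.00) and Lig4 (0.80). Of the 11 genes that fell, all 11 still did with DESeq2 size factors, upper quartile scaling, library size alone, no filter, DESeq2 and limma, and 1 gene was higher with no filter on low counts (Trav3-4) and with DESeq2 (Trdv4). Calls also reached 13 lower with no filter, adding Cd3e and Trav1, and 12 with limma, adding Tcrg-C1 (adjusted p of 0.0399 and 0.0470 by limma). Cd3e and Trav1 had 0 counts in every tuNK library, and Trav3-4 had 0 in every spNK library. Each was kept through the other group alone, so the direction of these calls was fixed by the selection and they are no test. Requiring 1 CPM or more in 4 libraries kept 11 of the 14 genes for testing and 10 fell. Leaving out each library in turn gave 10 to 12 lower and 0 to 2 higher. Over 591 values of single genes, 565 kept direction and call, 11 lost the call, 6 gained it and 9 reversed; the cause was not tested. Whether the replicate numbers shared by the groups pair the libraries could not be told. Correlations of deviations ran from -0.0081 to 0.0417 within a number and from -0.0641 to 0.0354 between numbers, too small to decide. The libraries of numbers 2, 3 and 4 were closest to the library of their own number, and those of number 1 were not. The fit with the replicate number as a block gave 11 lower and 0 higher, the same 11 genes. Depth limits the 14 genes that were not tested, most of which held a few counts in some libraries. Near copies limit several genes, above all Trav6n-7, Trav6d-7 and Trav15n-1, then Trdv2-2, Trav16n, Trbc2, Trbc1, Tcrg-C1, Tcrg-V1, Tcrg-C2, Trav3-4 and Trav13-2.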
